A study of Mus musculus with 16 samples.

Results

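Transcripts of 10 chemokine genes were followed in mouse epidermis, chosen by name from the rows of the count table: Cxcl1, Cxcl2, Cxcl5, Ccl20, Cxcl16, Cxcl10, Ccl2, Ccl5, Ccl27a and Cxcl14. All 10 were among the 49585 genes of the table, and 9 passed the filter on low counts, since Cxcl5 had 0 counts in all 16 libraries. RNA came from epidermis separated by heat shock from SKH-1 mice, a hairless stock, aged 8 to 12 weeks. The design crossed genotype with ultraviolet B (UVB) light, giving unexposed K5Cre controls, unexposed mice labelled epidermal C/EBPB -/-, and both genotypes taken 6 h after a UVB dose of 100 mJ/cm2. Each of the 4 groups had 4 libraries. K5Cre denotes Cre recombinase under the keratin 5 promoter, which is active in basal keratinocytes. Whether the knockout mice carry the same Cre allele, which flanked allele they carry and whether libraries are separate animals is not stated in the labels, so the p-values cover no more than the spread among these libraries, which may be technical.

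Chemokines are small secreted proteins that draw leukocytes along a gradient by binding G protein-coupled receptors. Keratinocytes are a major source of them in skin. Cxcl1, Cxcl2 and Cxcl5 attract neutrophils through the receptor Cxcr2, Ccl20 attracts Ccr6-bearing dendritic cells and T cells, and Cxcl16 is made as a membrane protein that is shed to attract Cxcr6-bearing T cells. Cxcl10 is an interferon-induced ligand of Cxcr3, Ccl2 attracts monocytes through Ccr2, and Ccl5 attracts T cells and monocytes. Ccl27a and Cxcl14 are made by resting epithelium, and Ccl27 recruits skin-homing T cells through Ccr10. C/EBPB is a basic leucine zipper transcription factor, encoded by Cebpb, that acts with NF-kB at many inflammatory genes.

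Promoter sequence is shown for the 4 members whose window, the 250 bases before the RefSeq start, held an NF-kB consensus match, because 3 of them rose after UVB and the other, Cxcl10, was higher in knockout than in control epidermis after UVB. Windows from the RefSeq table of GRCm38.p6 were given for 6 of the 10 members. None was given for Cxcl16, which also rose after UVB, or for Ccl2, Ccl5 and Cxcl5. Each line below runs 5′ to 3′ on the gene's strand from 250 to 31 bases before the start. Capitals in the lines for Cxcl1, Cxcl2 and Ccl20 mark the NF-kB match. In the line for Cxcl10 they mark, in order, AANNGAAA, a motif of interferon regulatory factors, a pair of NF-kB matches, and TGANTCA, the AP-1 motif.
Cxcl1, chr5:90890995-90891214, plus strand: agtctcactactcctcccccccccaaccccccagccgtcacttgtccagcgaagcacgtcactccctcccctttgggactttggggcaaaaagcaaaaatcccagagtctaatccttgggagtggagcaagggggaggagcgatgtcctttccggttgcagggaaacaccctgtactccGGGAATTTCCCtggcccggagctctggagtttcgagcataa
Cxcl2, chr5:90903649-90903868, plus strand: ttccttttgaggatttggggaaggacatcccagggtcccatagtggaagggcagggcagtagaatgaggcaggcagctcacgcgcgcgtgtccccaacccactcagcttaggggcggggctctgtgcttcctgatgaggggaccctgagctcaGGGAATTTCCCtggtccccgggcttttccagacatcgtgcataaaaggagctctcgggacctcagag
Ccl20, chr1:83116516-83116735, plus strand: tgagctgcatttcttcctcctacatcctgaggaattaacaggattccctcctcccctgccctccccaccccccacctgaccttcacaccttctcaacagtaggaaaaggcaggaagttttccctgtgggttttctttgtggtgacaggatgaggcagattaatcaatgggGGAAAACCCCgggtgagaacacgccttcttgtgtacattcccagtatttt
Cxcl10, chr5:92348920-92349139, minus strand: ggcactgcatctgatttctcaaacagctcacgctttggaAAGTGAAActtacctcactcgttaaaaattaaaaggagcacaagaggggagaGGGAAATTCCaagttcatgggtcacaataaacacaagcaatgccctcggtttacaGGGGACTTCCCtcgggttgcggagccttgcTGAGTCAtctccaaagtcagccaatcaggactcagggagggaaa
The capital stretch is the same 11 letters in Cxcl1 and Cxcl2. Of 32851 windows of this length in the table, 7.25% held the NF-kB consensus, 6.75% TGANTCA, 21.3% AANNGAAA and 9.56% TTGCNNAA, the core motif of C/EBP factors, each searched on both strands. The windows of Ccl27a and Cxcl14 held no NF-kB match. TTGCNNAA stood in windows of Ccl27a alone among the 6 members. The overlapping windows of the first and second of its 3 listed starts held the same site, and that of the third start held none. The site lay on the opposite strand (capitals), 138 to 131 bases before the first start.
Ccl27a, chr4:41774296-41774325, minus strand: gactatgccccTTAAGCAAcaaaaatacag
TGANTCA was found in the windows of Cxcl10 and of the third Ccl27a start, and AANNGAAA in those of Cxcl10 and Cxcl14. These matches describe letters only, and binding was not measured.

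Library totals ran from 33.0 to 53.3 M counts, and the values below are counts per 1000000 (CPM) after TMM scaling. Cebpb read 155 to 320 CPM in the 8 control libraries and at most 3.03 CPM in the 8 knockout libraries. The sum of 7 keratinocyte markers was between 24281 and 65218 CPM in every library, but single markers differed between genotypes. Krt14, a basal keratin gene, rose in unexposed knockouts (means 916 and 2594 CPM), and after UVB the basal keratin gene Krt5 was called higher (351 and 774 CPM) and Lor, a gene of the cornified layer, lower (11675 and 6229 CPM) in knockouts. Mitochondrial counts were 10.2% in unexposed knockout library 4 against 4.33 to 5.67% in the other unexposed knockouts, and 8.57% in unexposed control library 3 against 5.62 to 6.21% in the other unexposed controls. After UVB they were 8.57, 5.24, 9.59 and 9.65% in controls and 5.44 to 5.99% in knockouts. Exposed control libraries 1, 3 and 4 had 16993 to 18095 detected genes at equal depth against 19215 to 21567 in the exposed knockouts. Fewer cells of a type and less RNA per cell cannot be told apart in such bulk samples. Differences were tested with edgeR's quasi-likelihood test over 17741 genes, called at a Benjamini-Hochberg adjusted p under 0.05, and are given as log2 fold changes with their standard error (SE).

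**Figure D1:**
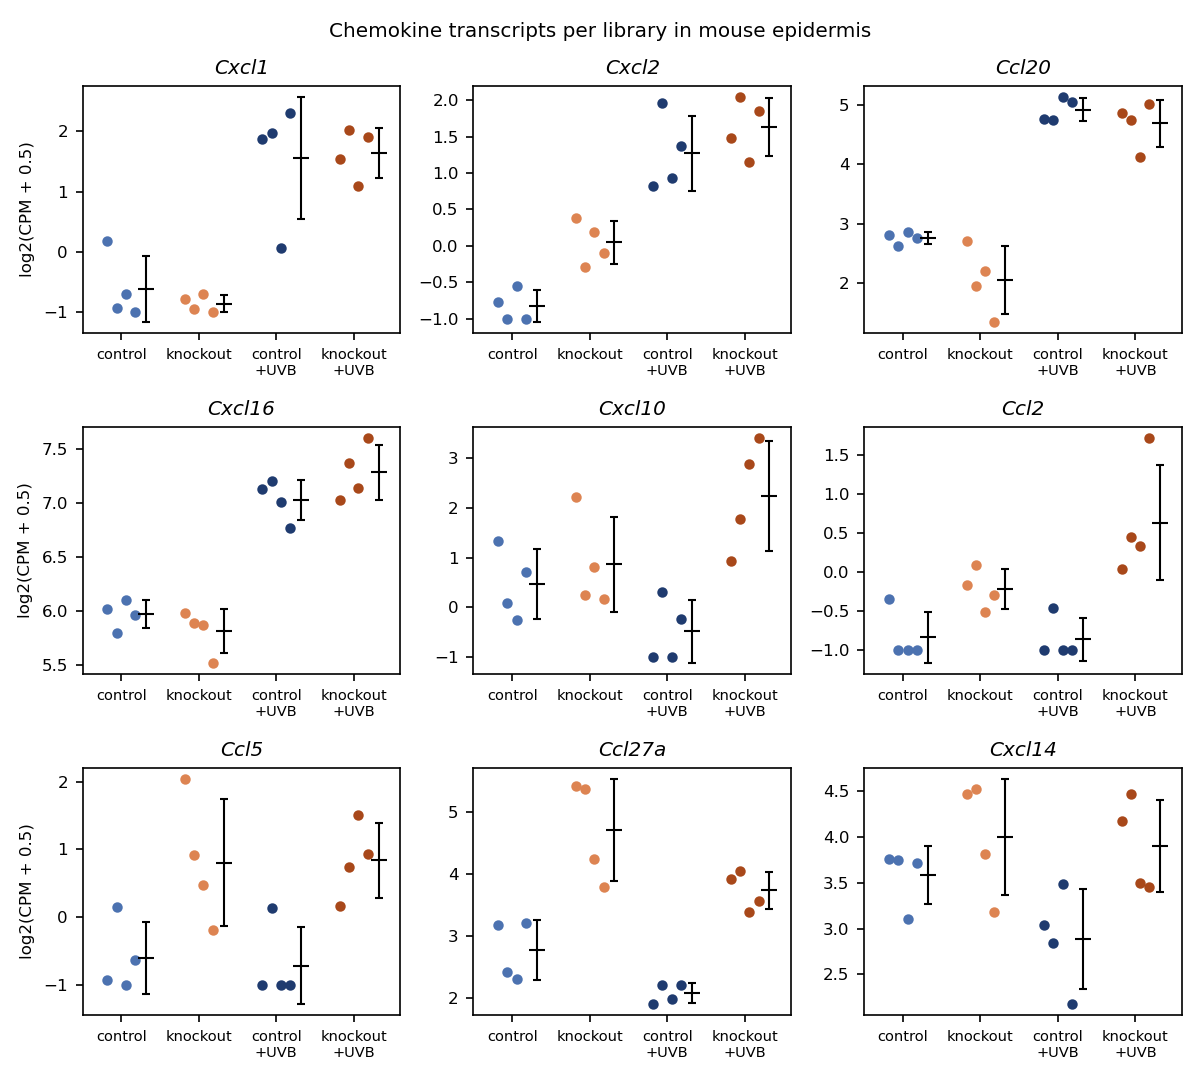
Levels of the 9 chemokine transcripts that passed the count filter, as log2(CPM + 0.5) on the vertical axis of each panel (scales differ), for 4 libraries per group (points) with their mean and SD (bars). Cxcl2, Ccl20 and Cxcl16 separate exposed from unexposed libraries of each genotype, whereas Ccl27a separates knockout from control libraries within each exposure.

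Per unit of exon length, Cxcl16 had the highest level of the 10 genes in every group and Cxcl5 the lowest. In unexposed control epidermis Cxcl16 reached 20.6 ± 1.79 CPM per kb (SD, n = 4), followed by Cxcl14 at 6.38 ± 1.30, Ccl20 at 4.44 ± 0.326 and Ccl27a at 2.80 ± 0.973 CPM per kb. Cxcl14 and Ccl20, and Ccl20 and Ccl27a, differed from each other by slightly more than the sum of their SDs. The other members were at most 0.449 CPM per kb and differed from their neighbours by less than their SDs. After UVB the order in controls was Cxcl16 at 43.4 ± 5.50 CPM per kb, Ccl20 at 21.0 ± 2.89, Cxcl14 at 3.99 ± 1.51, Ccl27a at 1.59 ± 0.197 and Cxcl1 at 1.54 ± 0.885, where the last 2 overlap. In unexposed knockout epidermis Ccl27a was second, at 12.2 ± 6.35 CPM per kb, within its spread of Cxcl14 at 9.05 ± 3.64 CPM per kb. Cxcl16 and Ccl20 led in exposed knockouts, at 52.1 ± 9.43 and 18.2 ± 4.54 CPM per kb.

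**Figure D2:**
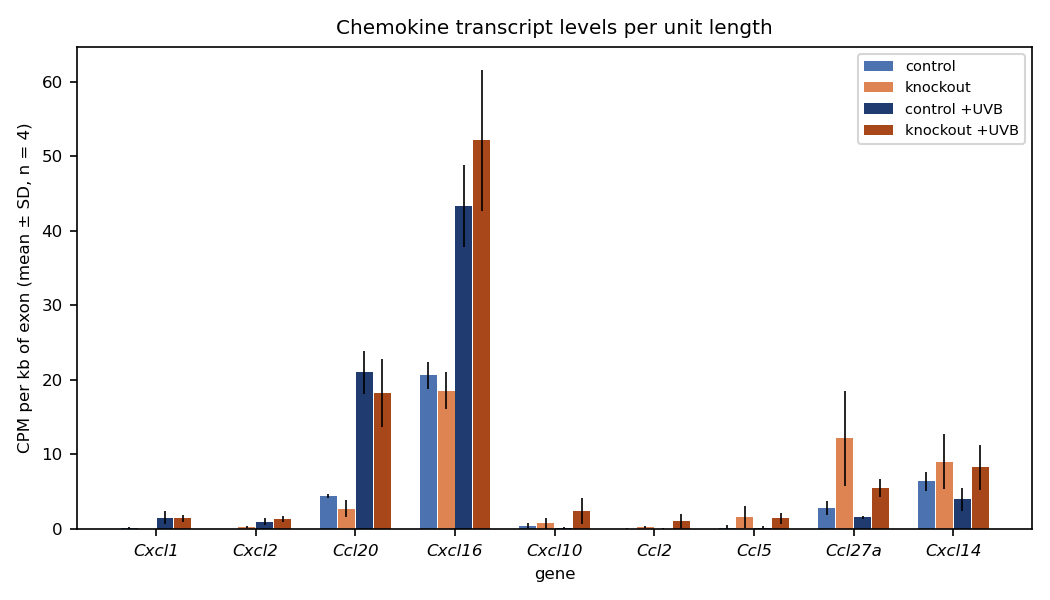
Mean level of 9 chemokine transcripts in CPM per kb of exon (bars, with SD over 4 libraries) in the 4 groups. Cxcl16 is the tallest in every group, and Ccl20 stands second in both exposed groups at 21.0 and 18.2 CPM per kb.

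Exposure to UVB was followed by higher levels of the neutrophil attractants Cxcl1 and Cxcl2, of Ccl20 and of Cxcl16 in both genotypes, and by a lower level of Ccl27a. Of the 9 members tested, 4 rose in control epidermis, where 17.7% of all tested genes rose, and 4 rose in knockout epidermis, where 18.1% rose. Ccl27a was the 1 member that fell in each, beside 18.0% of all genes in controls and 14.1% in knockouts. The remaining 4 tested members passed in neither. The members' median log2 fold change was -0.23 in controls and 1.65 in knockouts, beside -0.02 and 0.01 over all tested genes.

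**Figure D3:**
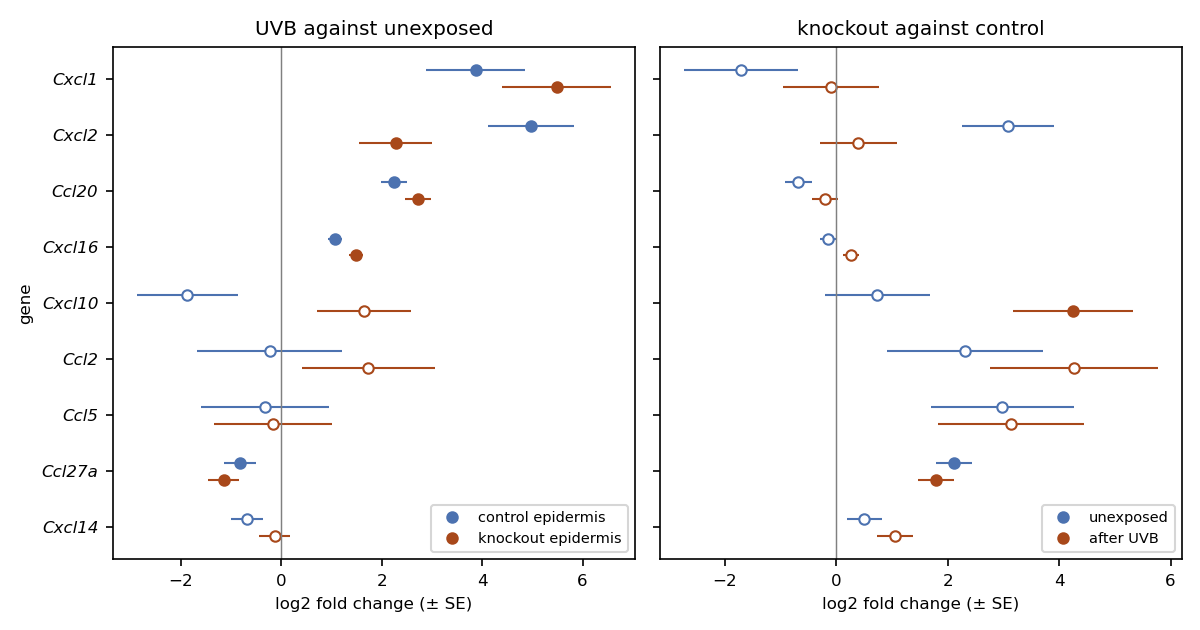
Log2 fold changes with SE (horizontal bars) of 9 chemokine genes for UVB against unexposed epidermis in each genotype (left) and for knockout against control epidermis at each exposure (right). Filled points passed an adjusted p under 0.05. Cxcl1, Cxcl2, Ccl20 and Cxcl16 are filled above 0 and Ccl27a below 0 in both genotypes on the left, while on the right Ccl27a is filled at both exposures and Cxcl10 only after UVB.

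Cxcl1 (chr5:90891241-90893115, plus strand, GRCm38) was near its detection limit without UVB. Control libraries without UVB read 0.636, 0.0235, 0.121 and 0 CPM, and those with UVB 3.16, 3.41, 0.548 and 4.45 CPM. The lowest exposed library lay below the highest unexposed one, so the groups overlapped, and unexposed library 1 held 29 of the 34 unexposed counts. Cxcl1 rose by 3.87 (SE 0.98, adjusted p = 0.00388), and by 5.99 without that library. In knockouts the levels went from 0.0816, 0.0177, 0.121 and 0 CPM to 2.40, 3.54, 1.64 and 3.24 CPM, with no overlap. This rise was 5.48 (SE 1.09, adjusted p = 0.000501), and it ran from 5.13 without unexposed knockout library 4 to 6.08 without unexposed knockout library 3.

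Cxcl2 lies next to Cxcl1 (chr5:90903871-90905938, plus strand) and acts on the same receptor. In controls it read 0.0877, 0, 0.182 and 0 CPM without UVB and 1.27, 3.39, 1.40 and 2.09 CPM with it. The groups did not overlap, and the rise was 4.97 (SE 0.86, adjusted p = 0.00012), or 6.02 without unexposed control library 3. Unexposed knockout libraries already read 0.800, 0.318, 0.644 and 0.437 CPM, all above the 4 unexposed controls. Exposed knockouts reached 2.28, 3.62, 1.71 and 3.11 CPM, a rise of 2.28 (SE 0.72, adjusted p = 0.019). That call ended without unexposed knockout library 2 or 4 or exposed knockout library 2 or 4, with adjusted p up to 0.0623.

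The higher starting level of Cxcl2 in knockouts corresponded to a log2 difference of 3.09 (SE 0.83) with an adjusted p of 0.0554, which missed the threshold. It passed with DESeq2 (3.19, adjusted p = 0.000832), without unexposed control library 3 (4.16, adjusted p = 0.0344) and without exposed control library 3 (3.12, adjusted p = 0.0486). The unexposed control counts behind it were 10 in all, against 113 in unexposed knockouts. After UVB the genotypes overlapped (0.40, SE 0.69, adjusted p = 0.817, 95% interval -0.95 to 1.74). Cxcl1 gave log2 differences between genotypes of -1.71 (SE 1.03, adjusted p = 0.577) unexposed and -0.10 (SE 0.85, adjusted p = 0.973) after UVB.

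Cxcl5, the third neutrophil attractant of the set, was not detected. A limit of 3 counts corresponds to between 0.0490 and 0.104 CPM per library, which is counting error only. Myd88, a gene of the NF-kB list described below, also had 0 counts in all 16 libraries. Whether such zeros reflect absent RNA or the way reads were counted was not tested. Cxcr2, the shared receptor of Cxcl1, Cxcl2 and Cxcl5, was measured in the same libraries. It read 11.7 ± 1.86 CPM in controls and 24.7 ± 4.74 CPM in knockouts without UVB (SD, n = 4). With UVB the levels were 22.5 ± 9.01 and 35.1 ± 8.94 CPM. Cxcr2 rose with the knockout unexposed (1.08, SE 0.24, adjusted p = 0.0215) and with UVB in controls (0.94, SE 0.24, adjusted p = 0.00399). The first call ended without unexposed control library 3 or 4 or unexposed knockout library 1 or 3. Of 11 neutrophil markers, which include Cxcr2, only 3 passed the count filter. Ly6g, which defines mouse neutrophils, had 0 counts in 3 groups and 4 counts in exposed controls, and most of the summed list was Cxcr2 itself. That sum ran from 10.4 to 16.8 CPM in controls and from 19.4 to 29.8 CPM in knockouts without UVB, and with UVB from 15.8 to 37.3 and from 25.8 to 44.8 CPM. The part of neutrophils in the Cxcr2 differences was not tested.

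Ccl20 (chr1:83116766-83119167, plus strand) showed little spread among control libraries and more among knockouts. Unexposed controls read 6.49, 5.70, 6.79 and 6.26 CPM and exposed controls 26.5, 26.3, 34.3 and 32.4 CPM. All exposed libraries lay above all unexposed ones, a rise of 2.24 (SE 0.25, adjusted p = 9.19e-07), or 4.73-fold. Unexposed knockouts read 6.07, 3.36, 4.10 and 2.06 CPM and exposed knockouts 28.6, 26.4, 16.9 and 31.9 CPM. The rise in knockouts was 2.72 (SE 0.26, adjusted p = 2.27e-07). The unexposed genotypes overlapped, with a log2 difference of -0.68 (SE 0.25, adjusted p = 0.19). The lowest of them was knockout library 4, the library with 10.2% mitochondrial counts. Its receptor gene Ccr6 was low, at 0.698 to 1.03 CPM in the group means, with no call in any comparison.

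Cxcl16 (chr11:70453983-70459984, minus strand) was the most abundant member. Unexposed controls read 64.3, 55.1, 68.0 and 61.9 CPM, and exposed controls 139, 147, 129 and 109 CPM. Unexposed knockouts read 62.6, 58.7, 57.9 and 45.3 CPM, and exposed knockouts 130, 165, 140 and 194 CPM. Exposed and unexposed libraries did not overlap in either genotype. Cxcl16 rose 2.10-fold in controls (log2 1.07, SE 0.14, adjusted p = 5.65e-06) and 2.81-fold in knockouts (log2 1.49, SE 0.14, adjusted p = 2.61e-07). Adam10, which encodes the protease that sheds the protein, fell by 0.33 in knockouts (SE 0.11, adjusted p = 0.0281) and gave -0.12 in controls (SE 0.11, adjusted p = 0.433). The Adam10 call was lost without unexposed knockout library 1 or exposed knockout library 1, 2 or 3. The receptor gene Cxcr6 read 1.91 to 3.61 CPM in the group means and was not called.

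Ccl27a, the skin-homing ligand, differed between genotypes at both exposures. The gene lies on the minus strand at chr4:41769467-41774247. Unexposed controls read 8.55, 4.85, 4.49 and 8.77 CPM and unexposed knockouts 42.6, 41.1, 18.6 and 13.4 CPM. Every knockout library was above every control, with knockout libraries 1 and 2 well above 3 and 4. The difference was 2.12 (SE 0.32, adjusted p = 0.00111), or 4.34-fold. After UVB controls read 3.27, 4.16, 3.47 and 4.17 CPM and knockouts 14.8, 16.1, 10.1 and 11.4 CPM, again with no overlap. That difference was 1.80 (SE 0.32, adjusted p = 0.00299), or 3.47-fold. It was the 1 member called of 9 in unexposed epidermis, where 0.964% of all tested genes rose, and 1 of 2 called after UVB, where 2.36% rose. The unexposed call held in all 23 alternatives tried, and the exposed one was lost with limma voom alone (adjusted p = 0.0555).

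Ccl27a fell by 1.15 after UVB in knockouts (-1.15, SE 0.31, adjusted p = 0.00714), a call kept in 23 of 23 alternatives although the groups overlapped. In controls the groups did not overlap and the log2 fold change was -0.83 (SE 0.32, adjusted p = 0.0495). This value stood at the threshold and passed in 12 of 23 alternatives, with adjusted p up to 0.279 under limma voom. It failed without unexposed control library 1 or 4, without any 1 of the 4 exposed control libraries, and without exposed knockout library 1, 2 or 3. Ccr10, which encodes the Ccl27 receptor, had 8 counts in controls and 13 in knockouts without UVB and 1 and 24 with it, and was not tested. The T cell markers summed to 58.3 to 74.6 CPM in unexposed controls and 24.6 to 60.5 CPM in unexposed knockouts. After UVB their sums were 38.2 to 60.7 CPM in controls and 35.6 to 77.4 CPM in knockouts. Of the 9 markers 0 passed between genotypes at either exposure. Over all 17741 tested genes 373 were called between genotypes unexposed and 830 after UVB.

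Genes near Ccl27a were examined after its values had been seen. Il11ra1, which encodes an interleukin 11 receptor subunit, lies on the opposite strand at chr4:41699989-41769474, and its end overlaps that of Ccl27a by 8 bases. Il11ra1 read 11.4, 6.71, 3.76 and 8.34 CPM in unexposed controls and 32.3, 31.3, 17.2 and 14.7 CPM in unexposed knockouts. After UVB it read 4.57, 3.09, 2.98 and 2.85 CPM in controls and 12.4, 8.31, 9.92 and 4.61 CPM in knockouts. Il11ra1 was thus higher in every knockout library than in every control of the same exposure, by 1.66 unexposed (SE 0.34, adjusted p = 0.0118) and 1.38 after UVB (SE 0.34, adjusted p = 0.023). The first was lost without unexposed knockout library 1 (adjusted p = 0.051), and the second with limma voom and without exposed control library 3 or 4 or exposed knockout library 1, 2 or 3. It fell after UVB in controls by 1.16 (-1.16, SE 0.34, adjusted p = 0.0107) and in knockouts by 1.44 (-1.44, SE 0.33, adjusted p = 0.00208). The control call was lost with limma voom and without unexposed control library 1.

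Within 200 kb on either side of Ccl27a, 10 other genes were tested, of which 1 rose in unexposed knockouts, beside 0.964% of all tested genes, and 3 after UVB, beside 2.36%. Among them were Il11ra1 and the pseudogene Ccl19-ps1, which had 0 counts in the exposed controls and 0.215 ± 0.130 CPM in exposed knockouts. Cntfr, which encodes the receptor of ciliary neurotrophic factor, gave 1.29 unexposed (SE 0.40, adjusted p = 0.112) and 1.24 after UVB (SE 0.41, adjusted p = 0.0829), with no overlap between the genotypes. Dctn3, between Cntfr and Ccl27a, gave -0.16 and 0.08 (adjusted p = 0.809 and 0.84). Near-identical copies of Ccl27a lie on the same chromosome, so its count is uncertain. Ccl27b, Gm13306 and Gm12407 had 137, 249 and 276 counts over all libraries against 10733 for Ccl27a, and none was called. The labels do not say whether strand was used in counting.

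**Figure D4:**
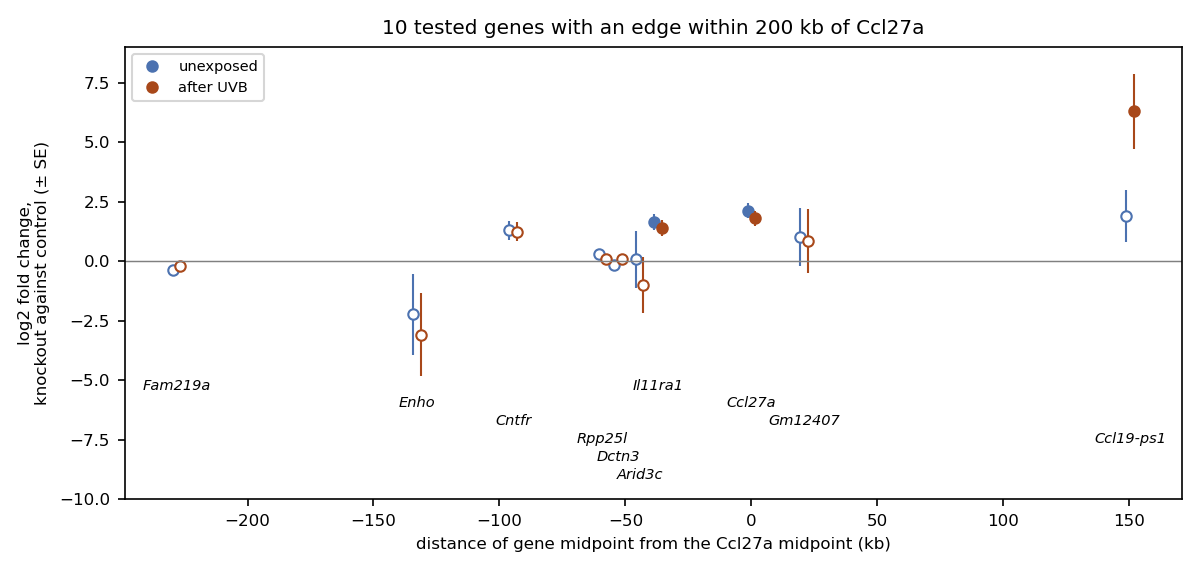
Log2 fold change with SE of knockout against control epidermis, unexposed and after UVB, for 10 of the 11 tested genes with an edge within 200 kb of Ccl27a, placed by the distance between gene midpoints in kb. Filled points passed an adjusted p under 0.05. Il11ra1 and Ccl27a are filled at both exposures and Ccl19-ps1 after UVB, and the value of Ccl19-ps1, whose exposed controls had 0 counts, rests on the model.

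Cxcl14, the other ligand of resting epithelium, moved less. Unexposed controls read 13.1, 12.9, 8.10 and 12.6 CPM and unexposed knockouts 21.6, 22.4, 13.6 and 8.56 CPM. Exposed controls read 7.71, 6.68, 10.7 and 4.03 CPM and exposed knockouts 17.5, 21.6, 10.8 and 10.5 CPM. Groups overlapped in all 4 comparisons. The log2 difference between genotypes after UVB was 1.05 (SE 0.32, adjusted p = 0.0627), which passed with DESeq2 (1.01, adjusted p = 0.0282) and without unexposed knockout library 4, exposed control library 3 or exposed knockout library 4. The UVB differences were -0.68 in controls (SE 0.32, adjusted p = 0.106) and -0.13 in knockouts (SE 0.31, adjusted p = 0.81). The former passed without exposed control library 3 (-0.92, adjusted p = 0.0392).

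Cxcl10, the interferon-induced ligand, was higher in exposed knockout than in exposed control epidermis. The gene lies at chr5:92346638-92348889 on the minus strand. Exposed controls read 0, 0.732, 0 and 0.348 CPM and exposed knockouts 1.41, 2.92, 6.85 and 10.1 CPM. The groups did not overlap, and the knockout libraries spread over a wide range. Cxcl10 rose by 4.26 (SE 1.08, adjusted p = 0.0299), and by 5.59 without exposed control library 2, which had the highest Cxcl10 level and the most detected genes of its group. Exposed control libraries 1 and 3, at 0 CPM, had the fewest detected genes of all 16 libraries, and the exposed controls other than library 2 had more mitochondrial counts than any exposed knockout. The part of these in the differences of Cxcl10, Ccl2 and Ccl5 was not tested. The call was lost in 9 of 23 alternatives, with adjusted p up to 0.0882. These were limma voom, no count filter, a fit of only the groups compared, and the fits without exposed control library 1, 3 or 4 or exposed knockout library 2, 3 or 4. Unexposed controls read 2.02, 0.565, 0.334 and 1.13 CPM and unexposed knockouts 4.19, 0.690, 1.25 and 0.625 CPM, which overlapped (0.74, SE 0.94, adjusted p = 0.903). The UVB differences were -1.87 in controls (SE 1.01, adjusted p = 0.167) and 1.65 in knockouts (SE 0.94, adjusted p = 0.212). Without exposed control library 2 the control value was -3.24 with an adjusted p of 0.0415.

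Ccl2, a monocyte attractant, and Ccl5 were at the edge of detection in controls. Ccl2 had counts in 1 of 4 libraries in each control group, 0.285 CPM in unexposed library 1 and 0.229 CPM in exposed library 2, and read 0 in the other 6 control libraries. All 8 knockout libraries had counts, with 0.392, 0.566, 0.201 and 0.312 CPM unexposed and 0.522, 0.867, 0.761 and 2.77 CPM after UVB. Unexposed genotypes overlapped (2.31, SE 1.40, adjusted p = 0.581), and the fitted value was 7.06 without unexposed control library 1, which left 0 counts in that group. The exposed genotypes did not overlap, and the difference of 4.27 (SE 1.51, adjusted p = 0.107) missed the threshold. It passed with DESeq2 (adjusted p = 0.026) and limma voom (adjusted p = 0.0222), and without exposed control library 2 (adjusted p = 0.0226), which left 0 counts in that group.

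Ccl5 behaved similarly at low counts. Unexposed controls read 0.0219, 0.612, 0 and 0.146 CPM and exposed controls 0, 0.595, 0 and 0 CPM. Knockouts read 3.61, 1.38, 0.885 and 0.375 CPM unexposed and 0.619, 1.17, 2.36 and 1.41 CPM after UVB. After UVB the genotypes did not overlap, although the highest control (0.595 CPM) lay close to the lowest knockout (0.619 CPM). The log2 difference was 3.13 (SE 1.31, adjusted p = 0.177), and it passed without exposed control library 2 (adjusted p = 0.0106), where the controls had 0 counts. Unexposed the difference was 2.98 (SE 1.29, adjusted p = 0.326), and 4.64 without unexposed control library 2. UVB gave no call for either gene over all libraries, with intervals of -3.05 to 2.58 for Ccl2 and -2.81 to 2.16 for Ccl5 in controls. Without exposed control library 2 the Ccl5 value there was -6.20 (adjusted p = 0.0233), against a group with 0 counts.

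The difference between the UVB responses of the genotypes was tested directly, as the knockout response minus the control response. Of the 9 members 0 passed, and 0% of all tested genes did with edgeR, although 1043 genes had an unadjusted p under 0.05 and DESeq2 called 31 genes and limma voom 0. Cxcl2 gave -2.69 (SE 1.06, unadjusted p = 0.0191, adjusted p = 0.795), Cxcl10 gave 3.52 (SE 1.38, unadjusted p = 0.0204, adjusted p = 0.795), and Cxcl16 gave 0.42 (SE 0.20, unadjusted p = 0.0469, adjusted p = 0.844). Ccl20 gave 0.48, with an interval of -0.19 to 1.15. The UVB and knockout comparisons share libraries, so their values are given side by side and not correlated.

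Among 30 other chemokine ligands, of which 16 passed the count filter, 2 rose in exposed knockouts, where 2.36% of all tested genes rose. Of the 16, 0 fell and 14 did not pass (median 1.22, beside 0.04 over all tested genes). Ccl8, a relative of Ccl2, rose by 4.35 (SE 0.92, adjusted p = 0.0188), from 1.86 ± 1.16 to 38.5 ± 21.6 CPM. Unexposed, Ccl8 read 3.45 ± 2.31 and 38.2 ± 39.3 CPM (log2 difference 3.46, SE 0.87, adjusted p = 0.0664). Cxcl11, a further Cxcr3 ligand, rose by 4.79 (SE 1.16, adjusted p = 0.0195), from 0.0286 ± 0.0572 to 0.951 ± 0.576 CPM, or 5 counts against 190. Without exposed control library 2 the fitted value was 8.41, against a control group with 0 counts. The Ccl8 call was lost with limma voom and without exposed control library 1, 3 or 4. That of Cxcl11 was lost without exposed knockout library 4 and when only the groups compared were fitted. Cxcl9, the third Cxcr3 ligand, read 2.05 ± 2.16 and 1.99 ± 1.07 CPM (-0.05, SE 0.83, adjusted p = 0.985). Unexposed, 0 of the 16 were called with edgeR and 1, Ccl8, with DESeq2 (median 0.66).

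UVB lowered 3 of these 16 ligands in controls and 1 in knockouts, and raised 0 (medians -0.74 and -0.04). Of all tested genes 18.0% fell in controls and 14.1% in knockouts, so the count in controls is near the share of all genes. Cx3cl1, the membrane-bound ligand fractalkine, fell by 0.94 in controls (-0.94, SE 0.29, adjusted p = 0.0146) and in knockouts by 0.80 (-0.80, SE 0.29, adjusted p = 0.0369). The knockout call was lost without unexposed knockout library 1, 2 or 3 or exposed knockout library 1, 2 or 4. Cxcl11 fell by 4.05 in controls (-4.05, SE 1.13, adjusted p = 0.00781), from 0.567 ± 0.138 CPM, and the fitted value was -7.70 without exposed control library 2. Ccl17, a Ccr4 ligand, had 40 counts in unexposed controls and 0 in exposed controls (adjusted p = 0.00945, or 0.0511 with limma voom).

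Of 23 chemokine receptor genes 16 were tested. With UVB 3 rose and 3 fell in controls, and 1 rose and 3 fell in knockouts (medians -0.76 and 0.07). Over all tested genes 17.7% rose and 18.0% fell in controls, near the receptors' shares, and 18.1% rose and 14.1% fell in knockouts. Cx3cr1, the fractalkine receptor, rose by 1.28 (SE 0.27, adjusted p = 0.000846) in controls and 1.70 (SE 0.28, adjusted p = 7.38e-05) in knockouts. Ccr4, found on skin-homing T cells, fell by 3.17 in controls (-3.17, SE 0.50, adjusted p = 4.39e-05) and in knockouts by 2.13 (-2.13, SE 0.47, adjusted p = 0.00146). Ccr9 and the scavenging receptor gene Ackr3 fell as well, Ccr9 by 1.34 and 1.85 and Ackr3 by 1.69 and 1.40 in controls and knockouts. Ackr1, an erythroid and endothelial scavenging receptor, rose by 2.93 in controls (SE 0.71, adjusted p = 0.00275). Between genotypes Cxcr2 was the 1 receptor called unexposed (median of the list 0.30), where 0.964% of all tested genes rose. After UVB 0 receptors were called with edgeR, against 1 each with DESeq2 and RLE scaling (median 0.55). Cxcr3 was not tested, with 0 counts in 3 groups and 18 in exposed knockouts.

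Genes of NF-kB signalling and of the cytokines that feed it formed a list of 26, of which 23 were tested. In controls 18 rose and 1 fell after UVB (median 1.06), and in knockouts 15 rose and 2 fell (median 0.87). Over all tested genes 17.7% rose and 18.0% fell in controls, and 18.1% rose and 14.1% fell in knockouts. Rela, which encodes the NF-kB subunit p65, rose by 2.47 in controls (SE 0.18, adjusted p = 4.25e-09) and 2.31 in knockouts (SE 0.18, adjusted p = 2.45e-08). Bcl3, a nuclear cofactor of NF-kB, rose by 2.58 (SE 0.20, adjusted p = 9.94e-09) and 1.64 (SE 0.19, adjusted p = 2.1e-06). Il1b, which encodes interleukin-1 beta, rose by 3.68 (SE 0.47, adjusted p = 6.44e-06) and 2.88 (SE 0.45, adjusted p = 6.42e-05). Tnfrsf1a, a TNF receptor gene, rose by 1.19 (SE 0.15, adjusted p = 4.18e-06) and 1.01 (SE 0.15, adjusted p = 3.58e-05).

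Between genotypes 2 of these 23 rose and 1 fell unexposed (median 0.03), and 0 rose and 2 fell after UVB (median -0.04). Among all 17741 tested genes 171 rose and 202 fell unexposed, and 418 rose and 412 fell after UVB. The epidermal cytokine gene Il36a fell in knockouts by 0.62 unexposed (-0.62, SE 0.15, adjusted p = 0.0355) and after UVB by 1.07 (-1.07, SE 0.15, adjusted p = 0.000412). The alarmin gene Il33 rose by 2.18 (SE 0.48, adjusted p = 0.0385) and Bcl3 by 0.77 (SE 0.19, adjusted p = 0.035) in unexposed knockouts. These 3 unexposed calls were lost in 7 (Il36a), 12 (Il33) and 7 (Bcl3) of 23 alternatives, which for all 3 included the fits without unexposed control library 2, 3 or 4 or unexposed knockout library 1 or 2. Rel, which encodes the subunit c-Rel, fell by 0.64 after UVB (-0.64, SE 0.14, adjusted p = 0.011).

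Of 10 genes that carry interferon signals to chemokine promoters, all were tested. Unexposed knockouts had 2 that rose and 0 that fell (median 0.29), and exposed knockouts 3 and 0 (median 0.54). The shares of all tested genes that rose were 0.964% unexposed and 2.36% after UVB. Stat2 rose by 0.99 (SE 0.19, adjusted p = 0.00786) and 1.10 (SE 0.19, adjusted p = 0.00218), and Irf9, its partner, by 0.64 (SE 0.17, adjusted p = 0.0492) and 0.77 (SE 0.17, adjusted p = 0.0108). The unexposed Irf9 call was lost in 11 of 23 alternatives, among them the fits without any 1 of the 4 unexposed control libraries and without unexposed knockout library 1, 2 or 3. In controls UVB lowered Stat2 by 0.63 (-0.63, SE 0.19, adjusted p = 0.0129) and Ifngr2 by 0.49 (-0.49, SE 0.11, adjusted p = 0.00188) and raised Ifngr1 by 0.53 (SE 0.17, adjusted p = 0.0171). Of these, the Stat2 call was lost without unexposed control library 3, and that of Ifngr1 without unexposed control library 2 or exposed control library 2. With UVB 1 gene rose and 3 fell in controls and 1 rose and 1 fell in knockouts (medians -0.13 and -0.08). Over all tested genes 17.7% rose and 18.0% fell in controls, and 18.1% rose and 14.1% fell in knockouts.

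The list of 10 genes for chemokine processing and presentation held proteases and heparan sulfate carriers, and all were tested. With UVB 1 rose and 3 fell in each genotype (medians -0.15 and -0.27). The shares of all tested genes were 17.7% up and 18.0% down in controls, and 18.1% up and 14.1% down in knockouts. Sdc1, a heparan sulfate proteoglycan gene, rose by 0.51 (SE 0.14, adjusted p = 0.00881) and 0.79 (SE 0.15, adjusted p = 0.000232), the former lost without exposed control library 2, and Ext2, which builds heparan sulfate, fell by 1.08 and 0.89 in controls and knockouts. Mmp9, a gelatinase gene, rose by 2.26 in exposed knockouts (SE 0.53, adjusted p = 0.0249), where 2.36% of all tested genes rose. It was the 1 call of the list between genotypes (median 0.24). It was lost with no count filter and without exposed control library 1 or 3 or exposed knockout library 1, 2 or 3. Unexposed, 0 passed with edgeR (median 0.12), against 3 with DESeq2 and 2 with limma voom.

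Some markers of cells other than keratinocytes also differed between genotypes. Of 9 Langerhans and dendritic cell markers, 6 rose in exposed knockouts, beside 2.36% of all tested genes, and 2 in unexposed knockouts, beside 0.964%. The 6 were Cd74, H2-Ab1, H2-Aa, Itgax, Mfge8 and Csf1r, and the 2 were Mfge8 and Csf1r. Cd207, H2-Eb1 and Ciita were not called between genotypes at either exposure. The sum of all 9 was 708 to 901 CPM in exposed knockouts against 357 to 530 CPM in exposed controls. Unexposed sums were 426 to 784 CPM in knockouts and 230 to 491 CPM in controls. Of 10 monocyte and macrophage markers 1, Csf1r, which is also in the Langerhans list, rose at each exposure. Itgam was at 0 in all libraries, as was Myd88, and whether this reflects absent RNA or the counting was not tested. The sum of the monocyte and macrophage markers was 17.8 to 27.3 CPM in controls and 31.9 to 38.4 CPM in knockouts without UVB. With UVB it was 41.1 to 61.6 and 50.6 to 59.8 CPM. Fibroblast marker sums were 0.683 to 1.24 CPM in unexposed controls and 2.06 to 7.79 CPM in unexposed knockouts, with no overlap (median log2 difference of the 5 tested 2.04). After UVB they were 0 to 10 CPM in controls and 2.45 to 5.73 CPM in knockouts. Mast cell marker sums reached at most 2.13 CPM. The part of these markers, and of the keratin and Lor differences, in the chemokine differences was not tested.

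For each tested member the genes with the most similar pattern over the 16 libraries were found by Spearman correlation of log2 CPM among 13193 genes, as a description of libraries that share groups and depth. Ccl5 was most like Ifi44 (rho 0.97), an interferon-stimulated gene, followed by Ccl8 (0.95) and Snn (0.95). Ccl27a was most like Cntfr (0.95), its neighbour on chromosome 4, then Postn (0.94), which encodes periostin, and Sec14l2 (0.93). Cxcl10 was most like Trim21 (0.90), Irgm1 (0.89) and Lgals8 (0.89), and Ccl2 like Npy (0.96), Cyb5r1 (0.93) and Fscn1 (0.93). Ccl20 was closest to Dusp10 (0.96), a MAP kinase phosphatase gene, BC031181 (0.96) and Lonrf3 (0.93), and Cxcl16 to Spryd4 (0.97), Dda1 (0.96) and Rhog (0.96). Cxcl2 was closest to Fam208b (0.97), Gch1 (0.96) and Wbp11 (0.95), Cxcl1 to Dhx38 (0.93), Ppa1 (0.93) and Tm2d2 (0.93), and Cxcl14 to Anxa4 (0.91), Ttyh3 (0.91) and Zkscan17 (0.91). Among the members themselves, rho was 0.85 for Cxcl1 with Cxcl16, 0.82 for Cxcl1 with Cxcl2 and 0.82 for Cxcl2 with Cxcl16. It was 0.81 for Ccl5 with Cxcl10, for Ccl2 with Ccl5 and for Ccl2 with Cxcl10. Ccl20 gave 0.80 with Cxcl1 and with Cxcl16, and Ccl27a gave 0.79 with Ccl5 and with Cxcl14. The next highest was 0.68, for Ccl2 with Ccl27a.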

How the data were processed

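Epidermal RNA was sequenced from directional libraries, 4 per group, per the labels' protocols. FastQC, STAR, HTSeq and DESeq2 are named in the submitters' processing notes; the sources used here give no version, genome build or strand setting. The authors deposited raw counts per Ensembl gene, which were used unchanged. Symbols, positions and exon lengths came from GENCODE M21 (GRCm38), which named 49326 of 49585 genes. Of the counts from 2 to 101, 68.8% were even, against 50% of those integers, so counting limits may be too narrow.

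edgeR 4.0.16 (R 4.3.3; filterByExpr, TMM, robust quasi-likelihood, 1 mean per group, all 16 libraries) tested 17741 genes, two-sided, with Benjamini-Hochberg adjustment. The SE was the log2 fold change over the square root of F, and 95% intervals were normal ones from it. CPM used TMM-scaled totals. The code was tested on simulated data. Alternatives were DESeq2 1.42.0, limma voom (3.58.1), RLE and upper-quartile scaling, mitochondrial genes and Gm42418 left out, no filter, only the groups compared, and each library left out. All members were described. Up to 4 genes per list and comparison with the smallest p were given with values, a few others in those lists and the neighbours of Ccl27a were named after their values were seen, and 3 genes per member were named by likeness. Members and lists were chosen with earlier results of these data known. Replicates differed beyond counting error (chi-square per degree of freedom at least 41.8). Some results are not reported here.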

Additional observations from a re-analysis of the deposited data

Results flagged for a closer look

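In 5 of 36 member and group combinations, 1 library stood far from the other 3 for its range. Chance gives about 1 in 20 only for values without ties. For Ccl2 in both control groups and Ccl5 in exposed controls the other libraries all read 0, so any count is flagged. The 5 flags can therefore not be set against that rate. Ccl2 was detected in a single library of each control group, unexposed library 1 (0.285 CPM) and exposed library 2 (0.229 CPM), with 0 in the others. Exposed knockout library 4 had 2.77 CPM of Ccl2 against at most 0.867 CPM in the other exposed knockouts. Ccl5 was detected in exposed controls in library 2 alone (0.595 CPM), which also had the most detected genes of that group. Cxcl14 was lowest in unexposed control library 3 (8.10 CPM), against at least 12.6 CPM in the other unexposed controls.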

How the results depend on the processing

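No paired analysis was possible because replicate numbers follow accession order and pair no libraries. Of the members, 1 was called between unexposed genotypes, against 2 with DESeq2 (Ccl27a and Cxcl2) and 1 to 2 when each library was left out. After UVB 2 were called, against 4 with DESeq2 (with Ccl2 and Cxcl14), 1 with limma voom (Ccl2), 1 without the count filter, 1 with only the groups compared (Ccl27a each) and 1 to 4 with a library left out. The UVB comparisons called 4 to 6 members in controls and 4 to 5 in knockouts with a library left out, against 5 in each.

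Differences that changed sign were not called over all libraries. With limma voom, Cxcl1 gave 0.15 between exposed genotypes and Ccl2 0.28 for UVB in controls, and the cause was not tested. With a library left out, the log2 differences between unexposed genotypes ran from -2.31 to 0.42 for Cxcl1 and from -0.25 to 1.31 for Cxcl10, and that between exposed genotypes from -0.46 to 0.16 for Cxcl1. For UVB in controls they ran from -4.78 to 4.52 for Ccl2 and from -6.20 to 1.33 for Ccl5, and in knockouts from -0.56 to 0.65 for Ccl5 and from -0.40 to 0.046 for Cxcl14. The difference between UVB responses ran from -2.79 to 6.45 for Ccl2, -1.51 to 5.97 for Ccl5 and -0.51 to 2.21 for Cxcl1. Fitting only the groups compared gave no value for Cxcl1 between unexposed genotypes or for Ccl2 and Ccl5 under UVB in controls, which the filter then removed.

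Over all genes, 171 were higher and 202 lower in unexposed knockouts, against 180 and 136 with upper-quartile scaling and 385 and 357 with DESeq2. After UVB 418 were higher and 412 lower, against 711 and 805 with DESeq2. Counts per group of 10 to 113 for Cxcl2 without UVB, and of 10 to 13 for Ccl2 in controls, limit what these members can show.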
